A study of Mus musculus with 2 samples.

Results

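The genes described here encode the regulated secretory pathway of endocrine cells: the granins and processing enzymes packed into dense-core granules, the membrane proteins of the granule, and the machinery that docks and fuses it. The list held 39 genes, chosen by symbol from their known roles, and all 39 were among the 31055 features of both libraries. They were followed from pituitary stem cells through differentiating cells to gonadotrophs, the Pou1f1 lineage and melanotrophs. The study profiled single cells with 10x Genomics 3′ chemistry in 2 libraries, male (XY) and female (XX), each made from 3 pooled pituitaries of Sox9iresGFP/+ mice at postnatal day 3. Cells were sorted for the GFP that the Sox9iresGFP allele produces, and every mouse carried that allele. The gate therefore takes in cells that switched Sox9 off a short time before as well as stem cells, while endocrine cells without GFP are not sampled. With a single library per sex, sex, pool and library cannot be told apart, and no test was made between the sexes.

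Endocrine cells store peptide hormones in dense-core granules and release them when calcium rises. Granins (chromogranins and secretogranins) are acidic proteins that aggregate with hormones as granules form, prohormone convertases cut the precursors inside the granule, and carboxypeptidase E and PAM finish the peptide ends. Rab GTPases carry the granule to the plasma membrane, CAPS and Munc13 proteins prime it, and a SNARE complex of Snap25, syntaxin and Vamp2 fuses it under the control of calcium-sensing synaptotagmins. Melanotrophs of the intermediate lobe, which cut proopiomelanocortin into melanocyte-stimulating hormone, and gonadotrophs, which secrete LH and FSH, are both rich in such granules.

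The male library held 10410 cells after filtering with a median of 8902.5 unique molecular identifiers (UMIs) per cell, and the female library 5711 cells with a median of 9789. The libraries differed in shallow cells: fewer than 2000 genes were found in 34.0% of male cells and 4.69% of female cells. They shared 18 of the kept barcodes. Each cell was placed in a class by raw UMIs of lineage markers, none of which is in the list. Stem cells had at least 3 UMIs of Sox2 and Sox9 and no Lef1, early differentiating cells at least 2 UMIs of Lef1, and late differentiating cells also a UMI of Smoc2 or Pou3f4. Early gonadotroph precursors had at least 2 UMIs of Neurod1 and maturing gonadotrophs at least 2 of Gnrhr, Lhb, Fshb and Nr5a1 together. Cells with at least 2 UMIs of Pou1f1 were split at 10 UMIs of Gh, Prl and Tshb into hormone-low and hormone-leading cells, and melanotrophs had at least 20 UMIs of Pomc and a UMI of Pax7. Stem, differentiating and early precursor cells also had no UMI of Pou1f1 or of the gonadotroph genes, and stem and differentiating cells none of Neurod1. Maturing gonadotrophs had no Pou1f1, and every pituitary class but melanotrophs had no Pax7 or Tbx19 and fewer than 20 UMIs of Pomc. Neurod1 was also found in Pou1f1 hormone-low cells and melanotrophs, so the name of the early gonadotroph precursors rests on the whole rule. The classes held, in the male and the female library, 2607 and 3017 stem cells, 100 and 90 early differentiating cells, 520 and 383 late differentiating cells, 452 and 104 early gonadotroph precursors, 321 and 33 maturing gonadotrophs, 574 and 223 Pou1f1 hormone-low cells, 75 and 37 Gh-leading cells, and 157 and 85 melanotrophs. Prl-leading cells numbered 55 and 5, too few in the female library to be tested. The rules left 48.3% of male cells and 25.2% of female cells without a class.

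Markers that the rules did not use were read as a check, in UMIs per 1000000 UMIs of the class (CPM). Cga, the common gonadotropin subunit, stood at 16750 in male and 16230 in female maturing gonadotrophs against 40.1 and 13.4 in stem cells. Ghrhr, the receptor for growth hormone-releasing hormone, reached 84.7 and 117 in Gh-leading cells and at most 0.378 in any other class. Oacyl, a melanotroph gene, stood at 676 and 552 in melanotrophs. Of the 5 stem markers, S100b went against the label, at 0.281 and 0.278 in stem cells. Female maturing gonadotrophs held more of the stem markers Ednrb and Hes1 (81.1 and 367) than the male cells (10.4 and 121). Of the 33 female cells, 22 carried only 2 to 4 UMIs of the 4 rule genes. The part of these stem markers in the results was not tested. Summed blood markers (3 genes, Ptprc at 0 in every class) ranged from 0 to 2.77 CPM over the fitted classes, endothelial markers from 0 to 2.30 and pituicyte markers (Rax at 0, by the rule) from 0 to 2.86. Summed neuronal markers (Tubb3, Elavl4 and Stmn2, none of them at 0 in the fitted classes) stood at 12.9 and 9.25 in stem, 28.0 and 22.2 in early and 134 and 97.4 in late differentiating cells, and at 630 and 445 in early gonadotroph precursors, so they were higher where the list was higher up to that class. Beyond it they were 508 and 450 in maturing gonadotrophs, 210 and 146 in Pou1f1 hormone-low cells, 82.9 and 25.5 in Gh-leading cells and 210 and 344 in melanotrophs, and at the Gh step they were lower while the summed level of the list was higher. Their part in the results was not tested.

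Promoter sequence was available in the RefSeq table (GRCm38.p6) for 30 of the 39 genes. The cyclic AMP response element (CRE), the site bound by CREB, is a well-known element of granin promoters, so its letters TGACGTCA, which read the same on both strands, were searched from 250 bases before to 50 bases after each start. It lay in 3 of the 30 genes (Scg2, Chgb and Pcsk1), while 2.03% of all genes in the table held it. The shorter core TGACGT, searched on both strands and counted also where it lies inside the full element, was in 6 genes (Chga, Chgb, Pcsk1, Rab3a, Scg2 and Scg5), against 8.37% of all genes. The letters TTCAGCACC, the left part of the RE1 element bound by the repressor REST, were in 3 genes (Ptprn2, Scg2 and Unc13a), against 0.433% of all genes. Its right part, GGACAG, was in 10 genes against 24.7% of all genes, and the TATA box letters TATAAA were in 2 genes against 15.7%, all searched on both strands. The promoters that hold the full element are shown together with Chga, the granin with the most UMIs, with 1 match in capitals, the full element or, in Chga, the short core. The Pcsk1 window holds a further copy of the short core, left in lower case. Each window is read 5′ to 3′ on the strand of its gene.
Scg2, chr1:79440051-79440130, minus strand: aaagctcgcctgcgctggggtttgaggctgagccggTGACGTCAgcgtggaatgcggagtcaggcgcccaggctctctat
Chgb, chr2:132781534-132781613, plus strand: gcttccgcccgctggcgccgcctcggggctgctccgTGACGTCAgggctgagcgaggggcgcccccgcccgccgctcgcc
Pcsk1, chr13:75089743-75089822, plus strand: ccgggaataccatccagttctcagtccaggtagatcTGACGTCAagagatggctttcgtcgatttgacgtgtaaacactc
Chga, chr12:102554861-102554940, plus strand: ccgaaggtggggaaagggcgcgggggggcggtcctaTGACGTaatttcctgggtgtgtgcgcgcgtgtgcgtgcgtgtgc
The match began 68 bases before the annotated start in Scg2, 72 before it in Chgb, 78 before it in Pcsk1 and 44 before it in Chga. A match describes letters only. Of the 4 genes with these promoters, Chga was called higher at 3 steps of the gonadotroph course and Scg2 and Chgb at 2, both first in early gonadotroph precursors, while Pcsk1 was called at none and stayed at or below 23.0 CPM in every fitted class.

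The secretory genes were low in stem cells, and their summed level was higher at each step towards the endocrine classes. It was 638 CPM in male and 718 in female stem cells, 859 and 1017 in early differentiating cells, and 1254 and 1291 in late differentiating cells. It was 2544 and 2486 in early gonadotroph precursors and 5875 and 5982 in maturing gonadotrophs. On the other branch it was 3017 and 2315 in Pou1f1 hormone-low cells and 4865 and 5672 in Gh-leading cells, and in melanotrophs it was 13306 and 10589. Along each branch the order of classes was the same in both libraries, and neighbouring classes did not overlap between the libraries. Mesenchymal cells, which lack dense-core granules and served as the background, held 602 and 628 CPM, a sum close to that of stem cells, but of this 250 and 339 CPM was Cpe, and summed granins stood at 46.1 and 8.46 CPM against 83.5 and 98.2 in stem cells. Most of the granin sum in stem cells was Scg5 alone, so the contrast does not hold for each granin.

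**Figure D1:**
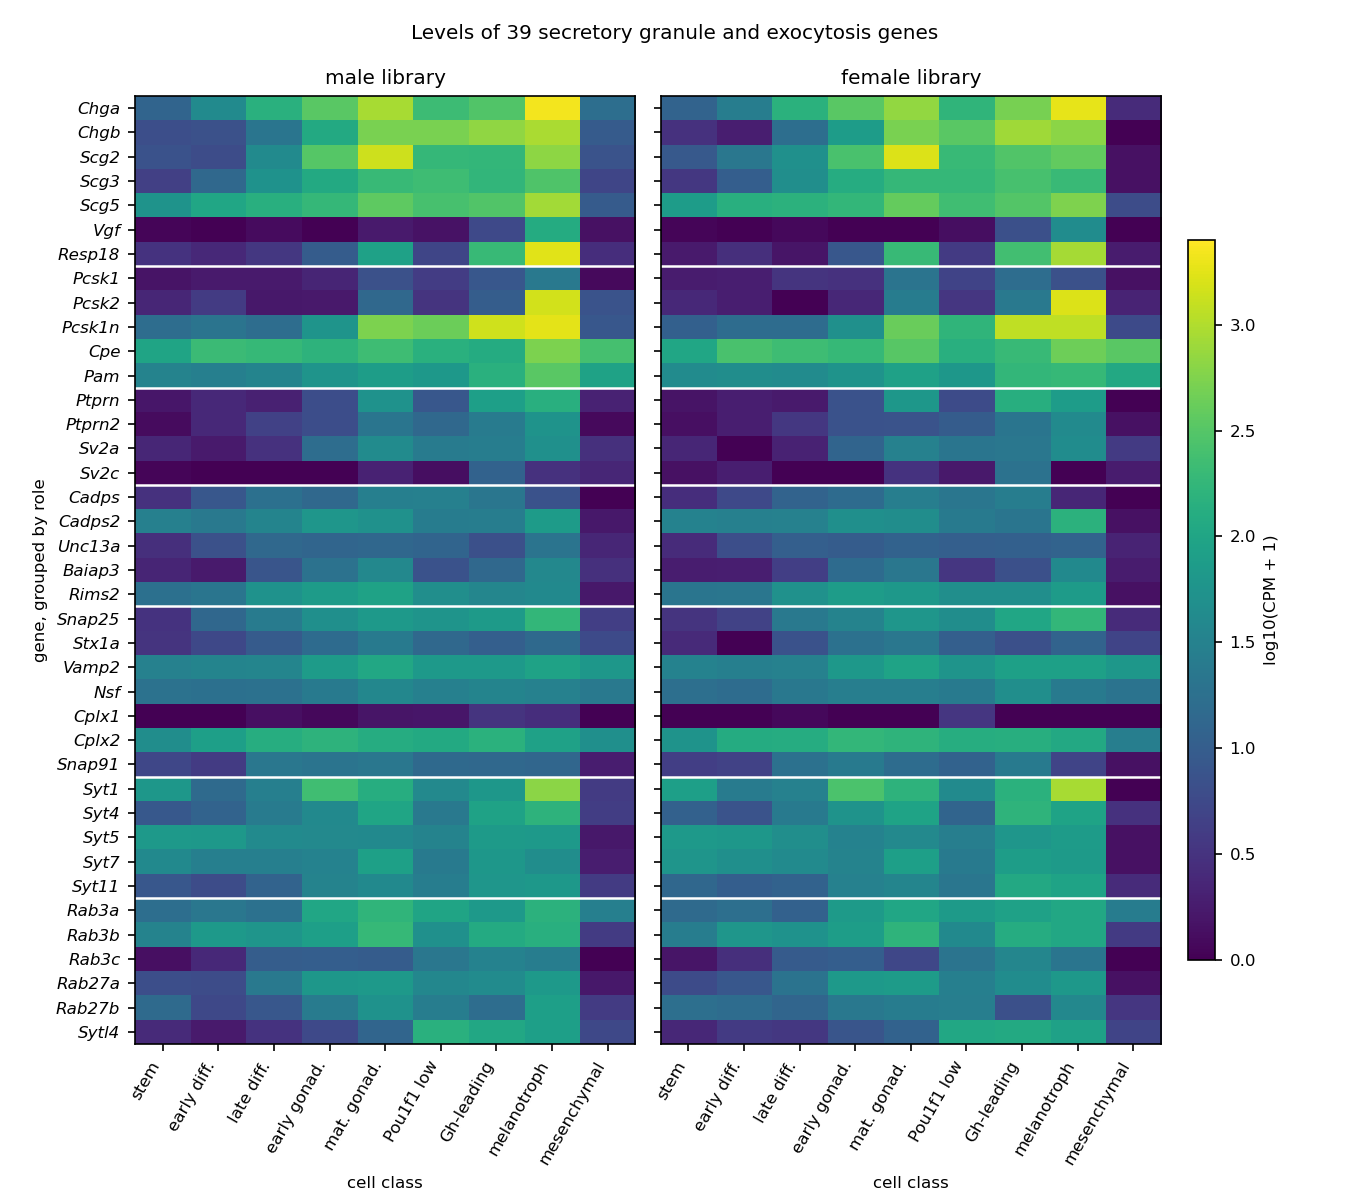
Level of each of the 39 genes as log10(CPM + 1), with 1 column per cell class and 1 panel per library; white lines separate the roles, from granins at the top to Rab proteins at the bottom. Most rows brighten from stem cells on the left to melanotrophs, while Syt5, Nsf, Cpe and Vamp2 are lit in every pituitary class.

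The genes were also counted cell by cell. After each cell was thinned to 5000 UMIs, the median stem cell held a UMI of 3 of the 39 genes in both libraries. The median was 3 and 4 in early and 4 and 4.5 in late differentiating cells, 8 and 8 in early gonadotroph precursors, 12 and 9.5 in maturing gonadotrophs, 7 and 6 in Pou1f1 hormone-low cells, 11 and 12 in Gh-leading cells, and 16 and 14 in melanotrophs, and it was 2 and 2 in mesenchymal cells. The order differed in places from that of the summed levels: male hormone-low cells had the higher sum but the lower median than male early gonadotroph precursors. Without thinning the medians were 5 and 5 in stem cells, 21 and 16 in maturing gonadotrophs and 27 and 22 in melanotrophs. Chga, for example, had a UMI in 3.13% of 2462 thinned male and 2.60% of 2965 thinned female stem cells, and in 1.34% and 0.755% of mesenchymal cells. Its share was 41.2% and 38.7% in late differentiating cells, 83.5% and 68.8% in maturing gonadotrophs and 99.3% and 98.8% in melanotrophs. The stem cell share is close to the free-RNA background and is not read as expression (exact 95% intervals 2.48% to 3.89% for male stem cells and 0.493% to 2.89% for male mesenchymal cells, counting error only).

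**Figure D2:**
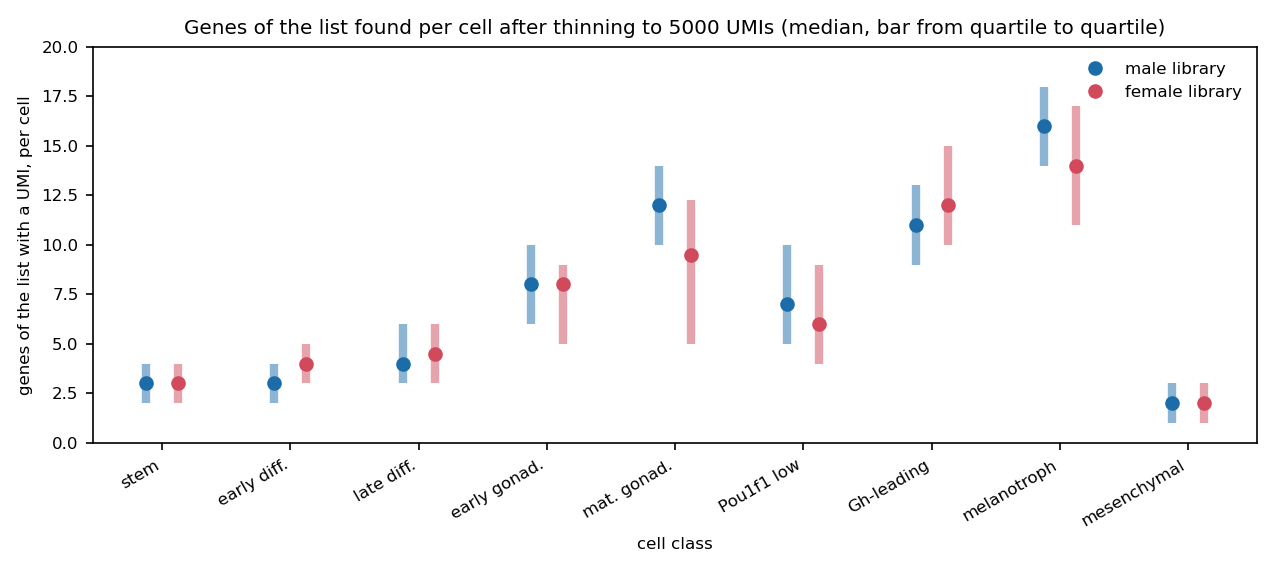
Number of the 39 genes with at least 1 UMI in a cell thinned to 5000 UMIs, by class, with the median as a point and the bar from the lower to the upper quartile. The medians run from 3 in stem cells to 16 and 14 in melanotrophs, and the female maturing gonadotrophs spread most widely, from 5 to 12.25.

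UMIs were summed per library and class and compared with edgeR's quasi-likelihood test over 13224 genes, with the library as a term. A gene was called at a Benjamini-Hochberg adjusted p below 0.05 and a difference of at least 2-fold, and 38 of the 39 genes passed the low-count filter, all but Cplx1. Fitted differences use TMM-scaled library sizes and so depart a little from ratios of the CPM. The library term takes up the overall difference between the 2 libraries. The p-values thus measure how far class differences departed from being equal in both, with the spread shared between genes. All classes of a library come from the same pool of animals, so the spread between animals is not measured.

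From stem to early differentiating cells, 6 of the 38 genes were higher and 1 was lower, with 2.0% of all genes tested called higher and 3.41% called lower. The 6 were Snap25, Unc13a, Cadps, Cpe, Rab3b and Cplx2, which act in granule transport, priming, fusion and hormone processing, and none was a granin. The median difference was 0.29 on the log2 scale, against −0.02 for all genes. By role it was 0.84 for granins and relatives, 0.18 for docking and priming genes and 0.22 for SNAREs and partners. Chga was called higher at this step with library totals (log2 1.62), without the low-count filter (1.54), with DESeq2 (1.62) and with stricter class limits (3.20). The absence of granins among the calls thus depends on the processing. From early to late differentiating cells 8 genes were higher and none lower (background 1.77% and 4.29%), with a median of 0.66 against 0.02. In the main fit the first granins were called here, Chga and Scg3, together with Baiap3, Rims2, Snap91, Snap25, Rab3c and Rab27a. Both early steps rest on the 100 and 90 early differentiating cells. Without cycling cells the first count was 3. That setting kept 90 and 85 early differentiating cells, but only 1788 and 2363 of the 2607 and 3017 stem cells. With stricter class limits, which kept 35 and 34 early differentiating cells, the second count was 1. No share of all genes called is given beside the counts of these alternative settings.

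From late differentiating cells to early gonadotroph precursors 13 genes were higher and none lower (background 5.19% and 2.5%). The median difference was 0.79 against 0.02 for all genes. From those precursors to maturing gonadotrophs 12 genes were higher and none lower (background 3.15% and 1.23%), with a median of 0.92 against 0.03. On the other branch 13 genes were higher and none lower in Pou1f1 hormone-low cells than in late differentiating cells (background 11.1% and 4.31%), with a median of 0.69 against 0.06. A further 15 were higher and none lower in Gh-leading than in hormone-low cells (background 4.44% and 1.52%), with a median of 0.81 against −0.01. Scaling to library totals moved the median of all genes by 0.11 and −0.17 in the last comparisons and left 14 genes higher in each, and the share of calls that were higher among all genes moved from 74.5% to 57.5% in the Gh step.

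Melanotrophs, which the classes do not place on the Lef1 course, were set against stem cells and against maturing gonadotrophs. Against stem cells 35 of the 38 genes were higher and none lower, all but Syt5, Syt7 and Nsf, with 14.9% of all genes called higher and 15.2% lower. The median difference was 3.73 on the log2 scale, against 0.01 for all genes. Against maturing gonadotrophs 17 were higher and 1 was lower (background 6.81% and 7.18%), with a median of 0.95 against −0.00085. Pomc made up 262245 CPM in male and 136193 in female melanotrophs, which lowers the CPM of every other gene there. Scaling to library totals in place of TMM moved the median of all genes by −0.31 and −0.39 in these comparisons. The counts were then 34 higher and none lower, and 13 higher and 3 lower. The share of calls that were higher among all genes moved from 49.6% to 35.4% and from 48.7% to 25%.

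**Figure D3:**
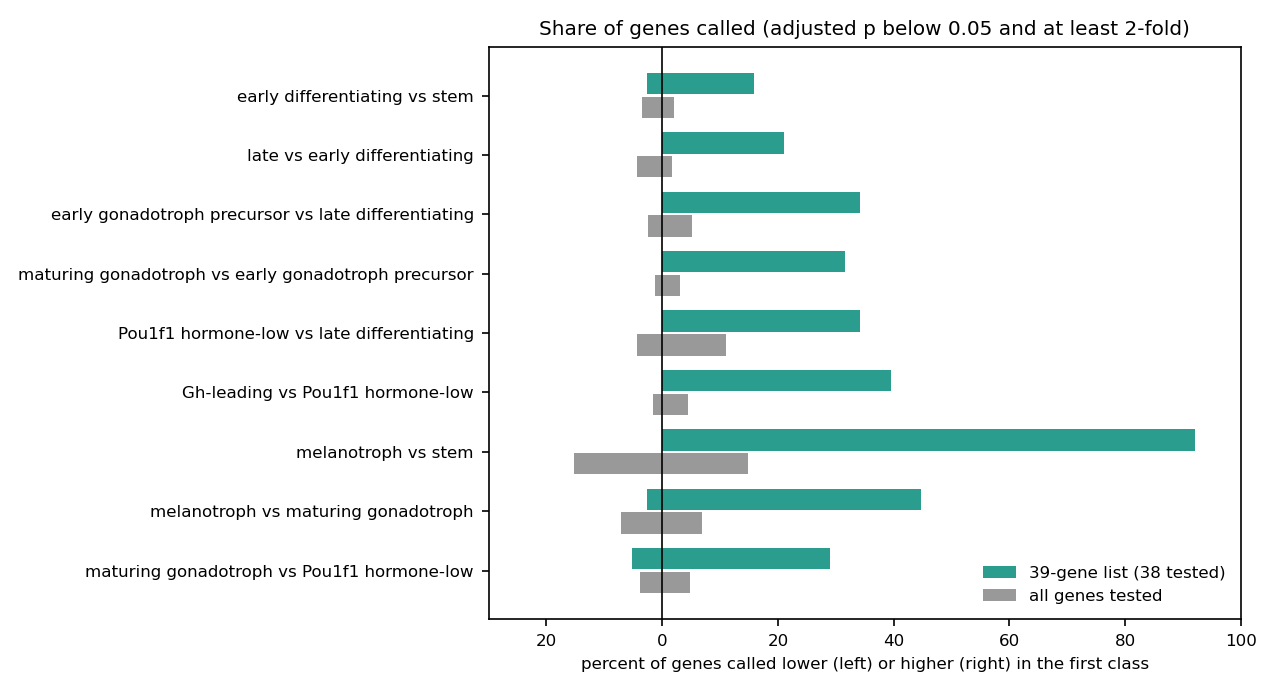
Percent of genes called higher (right) or lower (left) in the first-named class of each comparison, for the 38 tested genes of the list (green) and all 13224 genes tested (grey). The green bars to the right are longer than the grey ones in all 9 comparisons, from 6 of 38 genes in early differentiating cells to 35 of 38 in melanotrophs against stem cells.

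Among the granins and their relatives, Chga was higher at each step of the gonadotroph course, and the last 3 steps passed the test. Its level in male and female cells was 11.5 and 11.0 CPM in stem cells, 41.3 and 26.8 in early and 143 and 147 in late differentiating cells, 336 and 341 in early gonadotroph precursors and 891 and 713 in maturing gonadotrophs. The libraries did not overlap between any of these stages. The late differentiating step was a log2 difference of 2.07 ± 0.38 (SE; edgeR quasi-likelihood adjusted p = 0.0128), and the last gonadotroph step was 1.21 ± 0.26 (adjusted p = 0.027), which in the female library alone was 0.99. With stricter class limits none of the last 3 steps was called (edgeR quasi-likelihood adjusted p = 0.584, 0.0954 and 0.0698 in order). The early differentiating step was called instead (log2 3.20, adjusted p = 0.0377). Chga, which helps granules to form, was lower in the Pou1f1 branch, at 211 and 166 CPM in hormone-low and 301 and 502 in Gh-leading cells, and highest in melanotrophs at 2183 and 1902.

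Scg2, the precursor of secretoneurin, rose most in gonadotrophs. It stood at 6.19 and 7.98 CPM in stem cells, 41.1 and 50.4 in late differentiating cells, 321 and 265 in early gonadotroph precursors and 1381 and 1672 in maturing gonadotrophs. The log2 difference was 2.65 ± 0.44 at entry to the gonadotroph course (adjusted p = 0.00513) and 2.29 ± 0.41 at the last step (adjusted p = 0.0129). In melanotrophs Scg2 was at 673 and 377 CPM, and the fitted log2 difference of −1.09 from maturing gonadotrophs was not called. Among male maturing gonadotrophs, split after the values were seen, cells with 2 to 4 UMIs of the rule genes held 754 CPM of Scg2 and those with 5 or more held 1839.

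Chgb, another aggregating granin, was higher on both branches. Its level in late differentiating cells was 19.8 and 15.7 CPM. It was 117 and 75.5 in early gonadotroph precursors and 514 and 519 in maturing gonadotrophs, and it was already 520 and 338 in Pou1f1 hormone-low cells, a log2 difference of 4.49 ± 0.38 from late differentiating cells (adjusted p = 5.4e-05). The 55 male Prl-leading cells held 4742 CPM (4600 to 4887, exact Poisson 95% interval), which is a description with no test. Scg3, which anchors granin aggregates to the granule membrane, rose by 2.12 ± 0.51 on the log2 scale between early and late differentiating cells (adjusted p = 0.0332), from 13.3 and 9.26 CPM to 52.5 and 47.4. This Scg3 call was lost without cycling cells (adjusted p = 0.111) and with stricter class limits (adjusted p = 0.678).

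The remaining granin relatives were of contrasting kinds. Scg5, also called 7B2, the chaperone of convertase 2, was already at 54.6 and 73.7 CPM in stem cells and was not called at any step of either branch, but was 834 and 550 in melanotrophs. Resp18, a granule protein, was at or below 8.78 CPM up to early gonadotroph precursors and reached 86.5 and 196 in maturing gonadotrophs, 193 and 231 in Gh-leading cells and 1762 and 867 in melanotrophs. It had the largest difference of the 38 genes between Gh-leading and hormone-low cells, 6.03 ± 0.78 on the log2 scale (adjusted p = 0.00324), and 3.70 ± 0.80 between maturing gonadotrophs and their precursors (adjusted p = 0.0282). In female maturing gonadotrophs 89 of its 92 UMIs lay in 11 of the 33 cells. Vgf, a neurotrophin-induced peptide precursor, was at or below 0.756 CPM in stem cells and on the gonadotroph course, 4.58 and 5.66 in Gh-leading cells, and 122 and 44.2 in melanotrophs. Its difference between Gh-leading and hormone-low cells (log2 3.63 ± 0.80, adjusted p = 0.00457) was not called without cycling cells (adjusted p = 0.666).

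**Figure D4:**
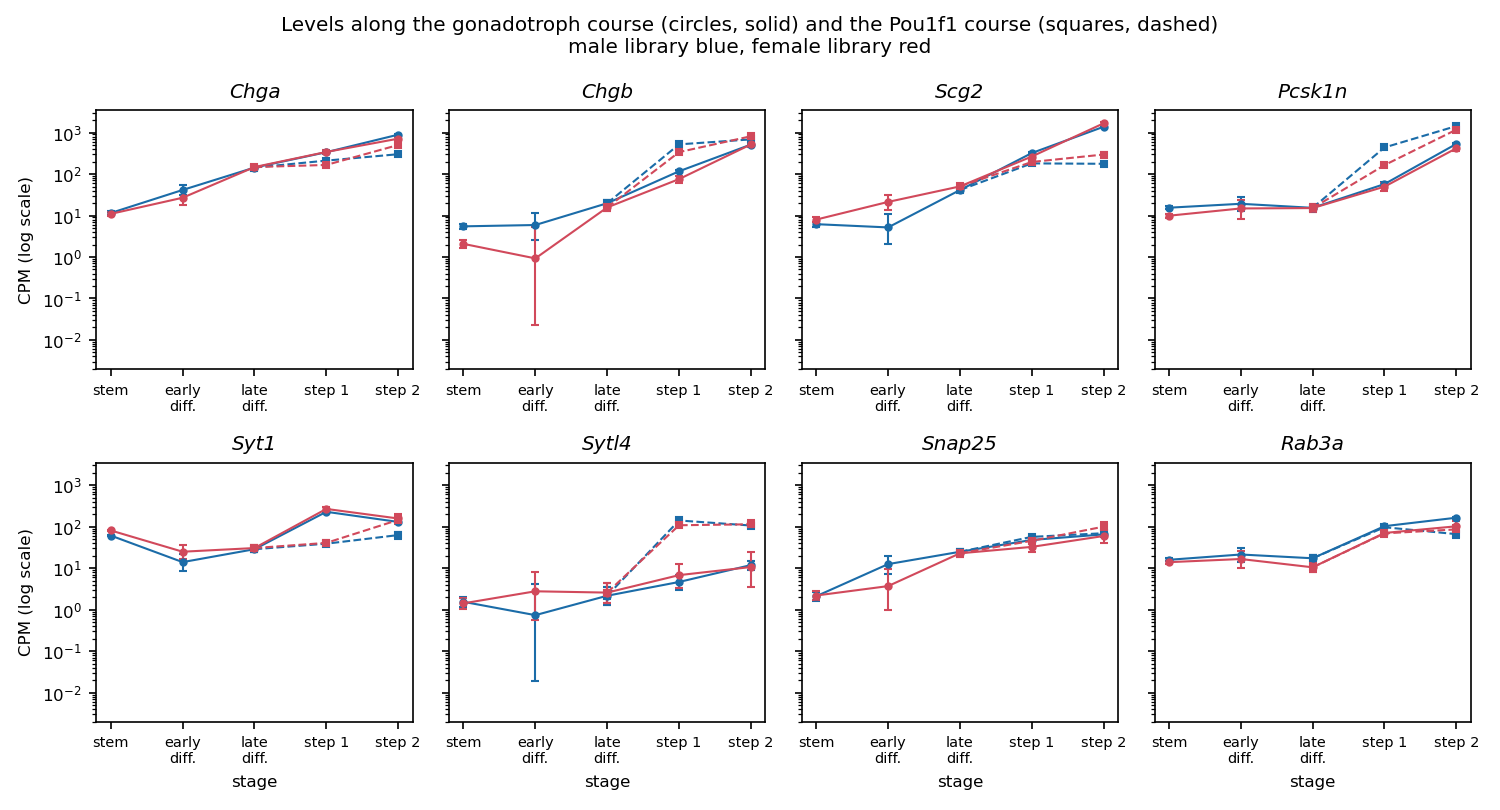
Levels of 8 genes in CPM on a log axis, with exact Poisson 95% intervals, in stem, early and late differentiating cells and then the gonadotroph classes (circles, solid: early precursor as step 1, maturing as step 2) or the Pou1f1 classes (squares, dashed: hormone-low, then Gh-leading). Sytl4 separates the branches at step 1, with 142 and 109 CPM on the Pou1f1 side against 4.66 and 6.81, while Chga is higher at every step of the gonadotroph course.

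The enzymes that mature hormones appeared in another order. Cpe, the carboxypeptidase that trims basic residues, was called first, in early differentiating cells, at 205 and 267 CPM against 95.6 and 103 in stem cells (log2 1.27 ± 0.24, adjusted p = 0.0126). It also stood at 250 and 339 CPM in mesenchymal cells, more than in stem cells. Pam, the amidating enzyme, likewise stood at 90.2 and 113 CPM in mesenchymal cells, was not called at any step of either branch, and was 335 and 188 in melanotrophs. Pcsk1n, the proSAAS inhibitor of convertase 1, stood at 15.3 and 15.1 CPM in late differentiating cells and then rose on both branches. It reached 57.3 and 49.7 in early and 533 and 418 in maturing gonadotrophs, 437 and 164 in Pou1f1 hormone-low cells, 1436 and 1177 in Gh-leading cells and 1800 and 1200 in melanotrophs. The log2 difference was 4.16 ± 0.33 at entry to the Pou1f1 branch (adjusted p = 2.94e-05) and 3.13 ± 0.33 at the last gonadotroph step (adjusted p = 0.000796).

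Of the convertases, Pcsk2 was called at the last gonadotroph step and at both Pou1f1 steps, and Pcsk1 at no step of either branch. Pcsk2, which with convertase 1 makes melanocyte-stimulating hormone from proopiomelanocortin, was at or below 2.95 CPM from stem cells to early gonadotroph precursors. It was 13 and 25.6 in maturing gonadotrophs, 2.26 and 2.48 in Pou1f1 hormone-low cells, a call over late differentiating cells that rests on 19 and 7 UMIs (log2 2.47 ± 0.75, adjusted p = 0.0174), 9.15 and 22.6 in Gh-leading cells and 1457 and 1664 in melanotrophs. Melanotrophs thus differed from maturing gonadotrophs by a log2 of 7.07 ± 0.23 (adjusted p = 1.87e-11) and from stem cells by 10.41 ± 0.22 (adjusted p = 2.22e-14), the largest difference of the 38 genes from stem cells. A UMI of Pcsk2 was found in 89.7% and 84.7% of thinned melanotrophs and in 7.26% and 12.5% of thinned maturing gonadotrophs, against 0.223% and 0.377% of mesenchymal cells. Pcsk1, the other convertase, stayed low even in melanotrophs, at 23.0 and 5.94 CPM.

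The granule and vesicle membrane genes formed the group with the lowest start. Ptprn (IA-2), Ptprn2 (phogrin), Sv2a and Sv2c together held 2.34 and 2.63 CPM in stem cells, 26.2 and 23.8 in early gonadotroph precursors, 117 and 100 in maturing gonadotrophs, 144 and 195 in Gh-leading cells and 247 and 160 in melanotrophs. Ptprn, the member of this group with the most UMIs, was 5.37 and 6.12 CPM in early gonadotroph precursors and 53.3 and 61.9 in maturing gonadotrophs, a log2 difference of 3.24 ± 0.53 (adjusted p = 0.00436). It was 7.50 and 4.97 in hormone-low and 81.8 and 136 in Gh-leading cells (log2 4.12 ± 0.45, adjusted p = 0.000518). At gonadotroph entry Ptprn was not called in the main fit. It was called there with library totals (log2 2.56), without the low-count filter (2.43), with DESeq2 (2.57) and without cycling cells (2.59). Sv2a, a vesicle glycoprotein, was called in the main fit at entry to both branches, from 2.04 and 1.11 CPM in late differentiating cells. It was at 15.4 and 11.6 in early gonadotroph precursors (log2 3.00 ± 0.30, adjusted p = 7.05e-08) and 25.3 and 19.9 in Pou1f1 hormone-low cells (log2 3.68 ± 0.26, adjusted p = 9.2e-11). Sv2c, its relative, was near 0 except in Gh-leading cells, at 10.9 and 18.4 CPM against 0.357 and 0.71 in hormone-low cells (log2 4.96 ± 0.76, adjusted p = 0.000128).

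Docking and priming genes were called mostly at the early steps. Cadps (CAPS1), which primes dense-core granules, rose from 2.08 and 1.79 CPM in stem cells to 7.38 and 4.63 in early differentiating cells (log2 1.67 ± 0.52, adjusted p = 0.0394), a call that was lost without cycling cells (adjusted p = 0.0777). Unc13a, which opens syntaxin for fusion, rose from 1.86 and 1.61 to 5.90 and 5.55 (log2 1.73 ± 0.49, adjusted p = 0.0225). These are low counts in a class of few cells. Cadps2, the group's member with the most UMIs, was called at no step of either branch. Rims2, a scaffold of release sites, rose at the next step, from 19.9 and 20.4 CPM to 53.0 and 52.2 (log2 1.38 ± 0.23, adjusted p = 0.000247). Baiap3, a Munc13 relative, rose from 0.738 and 0.926 to 6.77 and 3.32 CPM (log2 2.64 ± 0.76, adjusted p = 0.0254), again from few UMIs. It was not called by DESeq2 (adjusted p = 0.109) or with stricter class limits (adjusted p = 0.73). None of the 5 was called in the last gonadotroph step.

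Cadps was the single gene of the list called lower in melanotrophs than in maturing gonadotrophs, where scaling to library totals called 3 and leaving out the low-count filter 2. It held 6.13 and 1.32 CPM in melanotrophs against 28.0 and 27.8 in maturing gonadotrophs, and the libraries did not overlap. The log2 difference was −2.11 ± 0.35 (adjusted p = 6.3e-05). Its paralogue Cadps2 (CAPS2) went the other way, with 72.6 and 152 CPM in melanotrophs against 51.2 and 44.8 (log2 1.37 ± 0.21, adjusted p = 9.4e-05), although in the male library alone the log2 difference was 0.99. Against Pou1f1 hormone-low cells, too, where Cadps was at 28.9 and 20.6 CPM, the melanotroph values lay lower in both libraries, a comparison for which no test was made.

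**Figure D5:**
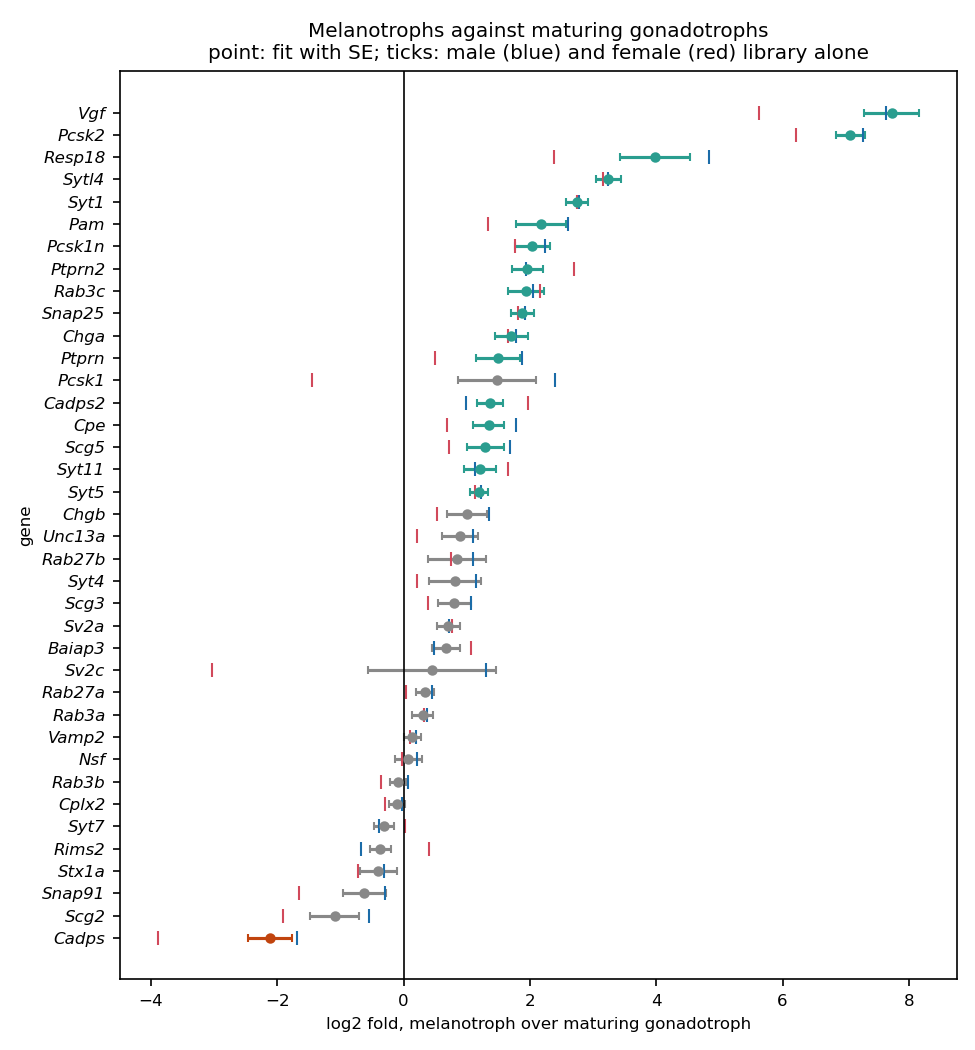
Fitted log2 difference between melanotrophs and maturing gonadotrophs for the 38 tested genes, with its SE as a bar and the value in the male (blue) and the female (red) library alone as ticks; green genes were called higher, the orange gene lower and grey genes neither. Vgf and Pcsk2 lie above 7 and Cadps at −2.11, and for Pcsk1 and Sv2c the libraries point in opposite directions.

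Among the SNAREs and their partners, Snap25, the plasma membrane SNARE of regulated release, rose at both differentiating steps. Its level was 2.11 and 2.20 CPM in stem cells, 12.5 and 3.70 in early and 24.9 and 22.9 in late differentiating cells, 65.4 and 59.8 in maturing gonadotrophs, 57.0 and 45.8 in Pou1f1 hormone-low cells and 177 and 179 in melanotrophs. The early difference was a log2 of 2.01 ± 0.48 (adjusted p = 0.00948), but 0.93 in the female library alone. Cplx2, a complexin that clamps the SNARE complex and the group's member with the most UMIs, rose early and then levelled off, from 45.4 and 55.4 CPM in stem cells to 82.7 and 121 in early differentiating cells (log2 1.03 ± 0.13, adjusted p = 1.07e-05) and 157 and 177 in early gonadotroph precursors. That call lay at the 2-fold limit and was lost without cycling cells (log2 0.80). Its relative Cplx1 had at most 2.48 CPM in any fitted class.

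Vamp2, the vesicle SNARE, was also found in mesenchymal cells, at 62.7 and 61.6 CPM against 30.2 and 30.7 in stem cells. It rose at gonadotroph entry from 34.7 and 30.1 to 71.8 and 64.0 CPM (log2 1.01 ± 0.14, adjusted p = 8.02e-06). Snap91, a clathrin adaptor of vesicle retrieval, rose in late differentiating cells from 2.95 and 3.70 to 21.1 and 17.5 CPM (log2 2.56 ± 0.50, adjusted p = 0.00163). With stricter class limits Snap91 was not called there (adjusted p = 0.263). Stx1a, a plasma membrane syntaxin, and Nsf, the ATPase that takes SNARE complexes apart, were called at no step of either branch.

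The synaptotagmins moved together at the Gh step, where all 5 were called higher, with a median log2 difference of 1.67 against −0.01 for all genes, and apart at the other steps, where between 0 and 2 were. Syt1, a fast calcium sensor, fell and then rose: it stood at 61.2 and 81.4 CPM in stem cells, 14.0 and 25 in early and 28.7 and 30.6 in late differentiating cells, 229 and 269 in early gonadotroph precursors, and 131 and 158 in maturing gonadotrophs. It was the single gene of the list called lower in early differentiating cells (log2 −1.86 ± 0.28, adjusted p = 0.000902) and, with Sv2a, had the largest difference at gonadotroph entry (log2 3.00 ± 0.18, adjusted p = 6.45e-08). A UMI was found in 21.6% and 27.8% of thinned stem cells against 0.223% and 0 of mesenchymal cells (0 of 265, which allows a share of up to 1.13%), so its stem cell level lies above the background. In Pou1f1 hormone-low cells it was at 39 and 40.8 CPM, and in Gh-leading cells at 62.9 and 146 (log2 1.38 ± 0.22, adjusted p = 0.00135). In the male library alone the log2 difference of Syt1 at this step was 0.86, below the 2-fold limit. Melanotrophs held the most, 643 and 901 CPM, a log2 difference of 2.75 ± 0.18 from maturing gonadotrophs (adjusted p = 8.03e-08).

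Syt5 and Syt7, calcium sensors found on dense-core granules, were already present in stem cells, at 68.5 and 68.0 CPM for Syt5 and 39.9 and 58.3 for Syt7, against at most 0.882 CPM in mesenchymal cells. Syt5 was at 38.3 and 31.3 CPM in early gonadotroph precursors and 68.2 and 72.6 in melanotrophs, and was called higher in Gh-leading than in hormone-low cells (log2 1.29 ± 0.16, adjusted p = 5.37e-06). Syt7 rose in maturing gonadotrophs to 84.3 and 81.1 CPM from 31.0 and 32.7 in their precursors (log2 1.40 ± 0.16, adjusted p = 3.37e-06), and in Gh-leading cells to 61.8 and 76.4 from 23.3 and 23.8 in hormone-low cells (log2 1.67 ± 0.19, adjusted p = 1.59e-06). Syt4, a granule synaptotagmin, was called at the Gh step alone of the steps of both branches, from 22.4 and 11.4 to 89.8 and 161 CPM (log2 2.80 ± 0.51, adjusted p = 0.0131). Syt11, a non-calcium-binding relative, was higher at both Pou1f1 steps and at gonadotroph entry.

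Sytl4 (granuphilin), the Rab27 effector that docks granules at the plasma membrane, was high in Pou1f1 cells and melanotrophs and low in gonadotrophs. It was at or below 2.78 CPM in stem and differentiating cells and at 4.66 and 6.81 in early and 11.9 and 10.7 in maturing gonadotrophs. In Pou1f1 hormone-low cells it was at 142 and 109 CPM, in Gh-leading cells at 107 and 115 and in melanotrophs at 81.0 and 88.4, with no overlap between those classes and the gonadotrophs. The difference from late differentiating cells was a log2 of 5.65 ± 0.19 in hormone-low cells (adjusted p = 2.22e-16), the largest of the 38 genes at that step. In a comparison added after the data were seen, maturing gonadotrophs were lower than hormone-low cells by a log2 of −3.47 ± 0.19 (adjusted p = 2e-12). A UMI was found in 44.4% and 32.4% of thinned hormone-low cells, 5.94% and 3.12% of thinned maturing gonadotrophs, and 1.34% and 1.51% of mesenchymal cells, so the female gonadotroph share is not read as expression.

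The Rab proteins that Sytl4 and its relatives bind were spread over the steps. Rab3b, a granule Rab and the group's member with the most UMIs, rose in early differentiating cells from 31.8 and 27.0 to 65.7 and 59.2 CPM (log2 1.12 ± 0.16, adjusted p = 4.87e-05) and again in maturing gonadotrophs to 186 and 162 (log2 1.09 ± 0.13, adjusted p = 5.29e-06). The early Rab3b difference fell below 2-fold without cycling cells (log2 0.87) and with stricter class limits (log2 0.95). Rab3c and Rab27a were first called in late differentiating cells. Rab3c went from 1.48 and 1.85 to 8.94 and 8.48 CPM (log2 2.40 ± 0.58, adjusted p = 0.00742), and Rab27a from 5.17 and 7.41 to 22.5 and 18.8. The Rab3c call was lost with stricter class limits (adjusted p = 0.648). Rab3a, the main Rab of regulated release in neurons, rose on both branches at entry, from 17.4 and 10.5 CPM to 103 and 70.8 in early gonadotroph precursors (log2 2.58 ± 0.19, adjusted p = 1.68e-08) and 97.2 and 69.2 in hormone-low cells. Rab27b was called at no step of either branch, although it was at 81.5 and 37.6 CPM in melanotrophs.

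By the first step at which each gene was called higher, 6 of the 39 genes appeared on the gonadotroph course in early differentiating cells, 7 in late differentiating cells, 9 in early gonadotroph precursors and 5 in maturing gonadotrophs. The other 12, with Cplx1 not tested, were called at none of these steps. On the Pou1f1 course to Gh-leading cells the later steps held 10 and 7 genes, and 9 genes were called at no step. Of all genes tested, 11.1% and 4.44% were called higher at those later steps. The genes first called at the final gonadotroph step were Resp18, Pcsk2, Ptprn, Ptprn2 and Syt7, which are granule contents, granule membrane proteins and a calcium sensor. The place of Ptprn depends on the processing. It was called a step earlier with library totals, without the low-count filter, with DESeq2 and without cycling cells. A step at which a gene was not called does not show that it was unchanged, and the early differentiating class had the fewest UMIs of the fitted classes over both libraries together. Chga was the single gene called higher at 3 steps of the gonadotroph course, and Snap25 the single one at 3 steps of the Pou1f1 course. With stricter class limits the 3 Chga calls were lost, and Chga was called in early differentiating cells instead.

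The branches were compared directly in the added comparison of maturing gonadotrophs with Pou1f1 hormone-low cells. Of the 38 genes 11 were higher and 2 were lower in maturing gonadotrophs (background 4.86% and 3.77%). The higher genes were led by Resp18 (log2 4.89 ± 0.82, adjusted p = 0.00601), Scg2 (2.99 ± 0.42, adjusted p = 0.00232), Ptprn (2.99 ± 0.46, adjusted p = 0.00177), Baiap3 (2.70 ± 0.26, adjusted p = 4.34e-08) and Pcsk2 (2.64 ± 0.40, adjusted p = 0.000329). The lower genes were Sytl4 and Rab3c (log2 −1.33 ± 0.27, adjusted p = 0.00113). These classes differ in stage as well as in lineage.

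Other lists of the pathway showed how far the pattern reached. Of 20 genes of the constitutive secretory pathway, which every cell uses to move proteins from endoplasmic reticulum to surface, between 0 and 2 were called higher and none lower in any of the 9 comparisons, a share near the background or under it (11.1% of all genes were called higher in Pou1f1 hormone-low against late differentiating cells and 14.9% in melanotrophs against stem cells). Below the 2-fold limit, 14 more passed the adjusted p alone in Pou1f1 hormone-low against late differentiating cells and 12 in melanotrophs against stem cells. Sec24d and Sec61b were the 2 called higher in melanotrophs than in stem cells and in Pou1f1 hormone-low than in late differentiating cells. Of 45 tested further genes of regulated exocytosis (53 in the list), 12 were higher and 2 lower in early gonadotroph precursors than in late differentiating cells, led by Syt2, Synpr and Syn2, against 5.19% and 2.5% of all genes. Of the same 45, 20 were higher and 4 lower in melanotrophs than in stem cells, led by Syp, Sv2b and Syn1, against 14.9% and 15.2% of all genes. They did not follow the 39 genes everywhere. At the Gh step 2 were higher and 2 lower, against 4.44% and 1.52% of all genes. In melanotrophs against maturing gonadotrophs 4 were higher and 7 lower, against 6.81% and 7.18%. Of 14 regulators of neuroendocrine identity, 10 were higher and 1 was lower in melanotrophs than in stem cells, against the 14.9% and 15.2% of all genes. Neurod1, among the 10, was held at 0 in stem cells by the class rule, so its call was fixed in advance. The rule also required Neurod1 in early gonadotroph precursors. The lower gene was Rest, the repressor that binds the RE1 element. None of the 14 was higher at the Gh step, where 4 were lower, or at the last gonadotroph step, where 1 was lower.

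Levels were then compared between the libraries, as CPM without TMM scaling. Pomc took a larger share of UMIs in male than in female melanotrophs, which lowers the other male values there (TMM factors 0.776 and 0.923). Among genes with at least 50 UMIs over both libraries, the median male to female ratio was 1.01 in stem cells over 32 genes, 0.771 in early differentiating cells over 10, 1.05 in late differentiating cells over 29, 1.05 in early gonadotroph precursors over 31, 1.10 in maturing gonadotrophs over 34, 1.23 in Pou1f1 hormone-low cells over 33, 0.808 in Gh-leading cells over 29 and 1.28 in melanotrophs over 36. Taking the limits of a ratio from the opposite ends of the libraries' exact 95% intervals, they left out 1 for 14 of the 32 genes in stem cells, 2 of 10 in early and 4 of 29 in late differentiating cells, 5 of 31 in early gonadotroph precursors, 7 of 34 in maturing gonadotrophs, 8 of 33 in Pou1f1 hormone-low cells, 10 of 29 in Gh-leading cells and 23 of 36 in melanotrophs.

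The genes with the 2 widest ratios each way are given by class. Towards the male library they were Pcsk1 (3.87-fold, limits 1.64 to 10.4) and Snap91 (3.10-fold) in melanotrophs, followed there by Vgf (2.75-fold, limits 1.98 to 3.88), Pcsk1n (2.66-fold, limits 2.35 to 3.02) and Baiap3 (2.49-fold, limits 0.903 to 8.12) in Pou1f1 hormone-low cells, and Ptprn2 (3.07-fold, from 3 female UMIs, limits 0.858 to 18.0) and Rab27b (2.06-fold) in maturing gonadotrophs. In stem cells they were Resp18 (2.95-fold) and Chgb (2.65-fold), at 2.19 against 0.743 and 5.49 against 2.07 CPM. Both are far higher in melanotrophs, and Pomc also stood higher in male than in female stem cells, at 146 against 46.7 CPM. The part of free RNA in these ratios was not tested. The male ratios were up to 1.54 in early differentiating cells (Chga, then Vamp2), 2.04 in late differentiating cells (Baiap3, then Rab3a), 1.54 in early gonadotroph precursors (Chgb, then Snap25) and 1.33 in Gh-leading cells (Cadps2, then Sv2a). Towards the female library they were Syt1 (2.32-fold, 146 against 62.9 CPM) and Syt11 (1.86-fold) in Gh-leading cells, Resp18 (2.27-fold, 196 against 86.5 CPM) and Pcsk2 (1.97-fold) in maturing gonadotrophs, and Cadps2 (2.09-fold) and Rims2 (1.80-fold) in melanotrophs. Of the 92 female Resp18 UMIs, 89 came from the 11 cells with 5 or more UMIs of the rule genes (610 CPM) and 3 from the other 22 (9.31 CPM), while the male groups held 88.5 and 83.8 CPM. The female ratios were up to 1.71 in stem cells (Syt11, then Syt7), 1.70 in early differentiating cells (Syt7, then Pam), 1.65 in late differentiating cells (Rab27b, then Syt7), 1.36 in early gonadotroph precursors (Syt4, then Cpe) and 1.14 in Pou1f1 hormone-low cells (Cplx2, then Scg2). The limits cover counting error only. With 1 library per sex these ratios have no replicate check.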

How the data were processed

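Single cells were measured in 2 libraries grouped by the sex given in the labels. The deposited raw UMI counts were made by the authors with Cell Ranger 3.0.2 (file header) on mm10 with an eGFP sequence added; the labels name both v2 and v3 of the 3′ chemistry. Cells with fewer than 50 genes or a mitochondrial share above the library mean plus 3 SD were left out (159 male, 85 female), leaving 105883748 and 62830305 UMIs. Cells were classed by marker UMIs (all pituitary classes also needed a UMI of general pituitary markers, not all of which are reported here, no Rax and fewer than 5 UMIs of Dcn, Col1a1 and Col3a1), and UMIs were summed per library and class with at least 20 cells. edgeR 4.0.16 (R 4.3.3) fitted 16 sums of 8 classes with TMM, filterByExpr and glmQLFTest, residual df 7; the SE is the log2 difference over the square root of F. CPM carry exact Poisson 95% intervals. Doublets were not removed; the 867 male and 261 female cells with the highest Scrublet scores were left out as an alternative, as were other class limits, filters, scaling and DESeq2 1.42.0. The fit was tested on simulated data. Between libraries no test was made. For each comparison the up to 5 called genes of largest fold each way, and in each role the gene with the most UMIs, were named. The genes, lists, class rules and tests were chosen with earlier results of these data known. Gene levels are not compared with each other. The comparison of maturing gonadotrophs with hormone-low cells and the splits of cells by rule genes were chosen after seeing the data.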

Additional observations from a re-analysis of the deposited data

Results flagged for a closer look

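In the step from stem to early differentiating cells, 2 genes moved in opposite directions in the libraries. Stx1a had a log2 difference of 1.11 in male cells and −1.71 in female cells, and Syt4 of 0.65 and −0.58. The difference between the libraries was not tested, Stx1a had no UMI in the female early differentiating cells, and neither gene was called in the fit.

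Cells with at least 20 UMIs of Pomc and a UMI of Tbx19 but none of Pax7 fell outside the classes (30 male and 23 female cells, chosen after the data were seen). Tbx19 is the regulator shared by melanotrophs and corticotrophs. These cells held Pcsk1 at 28.1 CPM (male) and 25.9 CPM (female) and Pcsk2 at 177 and 330 CPM, levels above those of stem cells (0.506 and 0.835 for Pcsk1, 1.29 and 1.45 for Pcsk2). Crhr1, a corticotroph receptor, was at 42.2 and 38.9 CPM and Oacyl at 62.3 and 194. No test was made.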

How the results depend on the processing

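Of 1000 values of named genes recomputed under the alternatives, 949 kept direction and side of the threshold, 31 lost the call, 20 gained it and none reversed. Without cycling cells 3 genes were higher in early differentiating than in stem cells. Late against early differentiating cells gave 13 higher genes without the low-count filter and 1 with stricter class limits, which also called 1 gene (Syt1) lower in maturing gonadotrophs than in precursors. Melanotrophs against maturing gonadotrophs gave 3 lower genes with library totals and 2 without the filter. The cause was not tested, and no share of all genes called is given beside these counts. With stricter class limits the summed level, as the mean of both libraries, was 1052 in early differentiating cells, 2582 in early gonadotroph precursors and 7270 in maturing gonadotrophs, and without the highest Scrublet scores 2571 and 6395 in the latter pair. Thinning to 3000 UMIs lowers the number of genes per cell by construction, to means of 1.84 in stem, 2.45 in early and 3.13 in late differentiating cells, 5.64 in early gonadotroph precursors, 7.81 in maturing gonadotrophs, 4.93 in Pou1f1 hormone-low cells, 8.24 in Gh-leading cells and 11.7 in melanotrophs. Leaving out a library leaves a fold with no test, so more genes pass: higher and lower counts were 15 to 15 and 2 to 3 for early differentiating against stem cells, 14 to 14 and 2 to 3 for late against early differentiating cells, 15 to 20 and 0 to 1 for gonadotroph entry, 13 to 18 and 0 to 0 for the last gonadotroph step, 14 to 16 and 0 to 1 for Pou1f1 entry, 15 to 22 and 0 to 1 for the Gh step, 32 to 36 and 0 to 0 for melanotrophs against stem cells, 15 to 23 and 1 to 5 for melanotrophs against maturing gonadotrophs, and 13 to 16 and 2 to 2 for the added comparison. The planned comparisons with Prl-leading cells were not run, for want of female cells. The library term of the fit already pairs the classes within a library. No paired analysis was possible between the sexes because their libraries share only the number 1. Depth limits Vgf, Sv2c, Cplx1 and Pcsk1 most. Each had few UMIs outside melanotrophs, and Sv2c and Cplx1 had few in melanotrophs as well.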

Other observations

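Prl-leading cells, the lactotroph-like end of the Pou1f1 lineage, were left out of the tests because the female library held 5 of them. The 55 male cells had a summed level of 11945 CPM for the 39 genes, between the 4865 of male Gh-leading cells and the 13306 of male melanotrophs. Chgb stood at 4742 CPM in them, Pcsk1n at 2290, Scg3 at 859, Chga at 634, Rab3c at 88.7 and Ptprn at 59.5. Sytl4 was at 70.7 CPM against 142 in male hormone-low cells. After thinning to 5000 UMIs a median of 14 genes of the list had a UMI in a male Prl-leading cell. These are values of a single library, with no test.

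Maturing gonadotrophs were split, after the data were seen, at 5 UMIs of Gnrhr, Lhb, Fshb and Nr5a1 together, none of which is in the list. Male cells with 2 to 4 UMIs (144 cells) and with 5 or more (177 cells) held 524 and 1158 CPM of Chga, 219 and 761 of Pcsk1n, 26.4 and 72.9 of Ptprn and 131 and 226 of Rab3b. Female cells (22 and 11) held 400 and 1404 CPM of Chga, 71.3 and 1185 of Pcsk1n, 21.7 and 151 of Ptprn and 127 and 240 of Rab3b. Others did not follow: Cplx2 was at 141 and 114 CPM in the male and 186 and 103 in the female groups, and in male cells Resp18 was at 83.8 and 88.5 and Rab3a at 160 and 169. Syt1 stood at 172 CPM (156 to 191, exact Poisson 95% interval) in male cells with fewer of these UMIs and lower, within 89.1 to 112, in those with more, and at 140 and 199 in female cells. No test was made, and the median depth was 14252 and 15067 UMIs in the male and 13278 and 14341 in the female groups.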
